A study of Danio rerio with 6 samples.

Results

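Blood progenitors of zebrafish (Danio rerio) embryos were profiled by RNA-seq at 20 h post fertilization, in 3 libraries from blf-/-;drl 4KO embryos, called mutant here, and 3 control libraries. Cells were sorted by red fluorescent protein (RFP), expressed from the trapped blf locus, and 30000 of them went into each library. Mutant embryos carry mutations in blf and in genes of the drl family, which code for zinc finger proteins made in early blood mesoderm. The control genotype is blf-/- in the sample labels and blf+/- in the series design, so the controls also carry the trapped blf allele, in 1 or both copies. blf had 130, 92.5 and 48.8 CPM in mutant replicates 1, 2 and 3, against 2482, 2157 and 2444 CPM in control replicates 1, 2 and 3, and drl at most 0.427 CPM in mutant libraries, against at least 502 CPM in controls. CPM is the count of a gene scaled to the file total. The labels do not tie the replicates to separate clutches or sorts, and every p-value therefore covers the spread among these libraries, which may be technical.

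The genes described here were chosen by their CPM values in both groups, under 1 CPM in every mutant library and at least 5 CPM in every control library. blf, drl, drll.1, drll.2, drll.3 and gp9 were set aside by name, and 4 of these 6 also met both limits. Of 32520 genes in the files, 6623 others were at 5 CPM or more in each control library, and 23 of them (0.347%) were under 1 CPM in each mutant library. This share follows from the limits themselves. Since the 23 genes were selected on these values, their differences are given as a description with no test. In the other direction, 105 of 7782 genes at 5 CPM or more in each mutant library were under 1 CPM in each control library.

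In the zebrafish embryo the first blood cells form in lateral mesoderm, mostly as primitive red cells, alongside early macrophages and the cells that line vessels. At this stage the red cell precursors divide, fill with globin and enter the circulation. Genes for histone mRNA processing, telomere protection, tRNA modification and ribosome production work in many cell types. Globins, platelet tubulin or endothelial RNAs are each known best from a single lineage, which does not fix the cells they come from here.

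All 23 genes passed the filter on low counts of the fit over all genes, which the 5 CPM limit in the controls fixes. File totals ranged from 14063972 to 18101975 in the mutant libraries and from 12751618 to 14202026 in the controls. A level of 1 CPM corresponded to 14.1 to 18.1 reads in the mutant libraries, and 5 CPM to 63.8 to 71.0 reads in the controls. Summed over the 23 genes, the mutant libraries held 127, 103 and 126 reads, and the controls 9913, 7588 and 8371 reads. CPM is not corrected for transcript length, so a higher CPM of one gene than of another does not order their transcript levels.

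**Figure D1:**
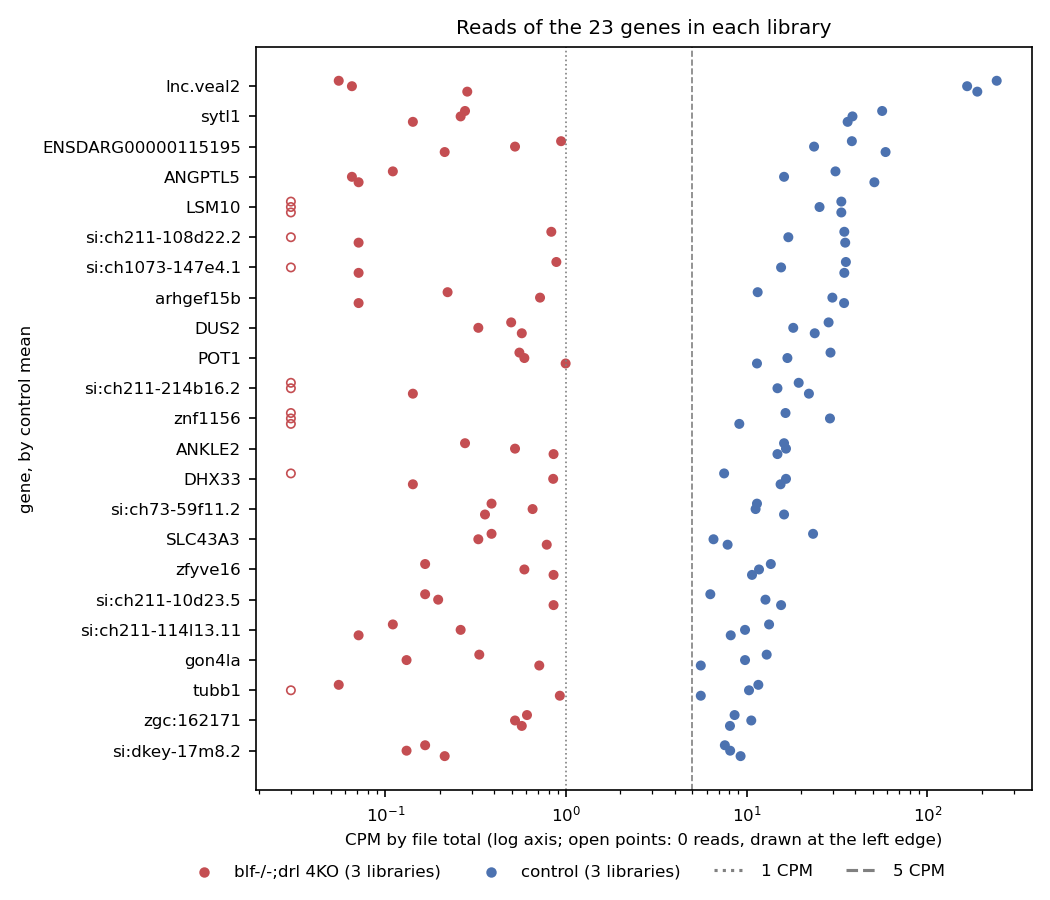
Each point is 1 library, with its CPM by file total on a log axis and the 23 genes down the page by control mean. Open points are libraries with 0 reads. All mutant points lie left of 1 CPM and all control points right of 5 CPM, which the choice of genes fixes; LSM10 and znf1156 have 0 reads in all 3 mutant libraries.

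The gene with most reads was a noncoding RNA. lnc.veal2 (ENSDARG00000099896), a zebrafish long noncoding RNA known from vessel endothelium, had 0.0552, 0.0653 and 0.284 CPM in mutant replicates 1, 2 and 3, against 242, 166 and 189 CPM in control replicates 1, 2 and 3. That is 6 reads against 8165, and the level was 1578-fold lower in the mutant libraries (95% exact binomial interval 725 to 4301). Such intervals cover counting error only. No other gene of the 23 was above 100 CPM in each control library. In the same libraries 8 of 16 tested endothelial markers were higher and none was lower, beside 13.0% higher and 9.92% lower over all tested genes. The summed CPM of the endothelial list was 702 to 795 in the mutant libraries and 125 to 211 in the controls, and no matched marker was at 0 reads throughout a group. The part of endothelial cells in the level of lnc.veal2 was not tested. In bulk RNA, fewer cells of a type and less RNA per cell cannot be told apart.

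arhgef15b, ANGPTL5 and tubb1 belong to families with members in vessels or thrombocytes. arhgef15b (ENSDARG00000061844), whose mammalian counterpart acts in endothelial cells and neurons, had 0.221, 0.718 and 0.0711 CPM in the mutant libraries, against 11.5, 29.8 and 34.6 CPM in the controls. Control replicate 1 was the lowest of its group and still far above every mutant library. ANGPTL5 (ENSDARG00000056630), a secreted protein of the angiopoietin-like family, had 0.11, 0.0653 and 0.0711 CPM in the mutant libraries, against 31.0, 16.1 and 50.9 CPM in the controls. Only 4 reads remained against 1312, a level 380-fold lower (148 to 1398), while the controls themselves spread 3.16-fold. tubb1 (ENSDARG00000053066), the beta tubulin of platelets in mammals, had 0.0552, 0 and 0.924 CPM in the mutant libraries, against 11.6, 10.3 and 5.57 CPM in the controls. Of its 14 remaining reads, 13 lay in mutant replicate 3.

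The thrombocyte list gives the setting for tubb1, which it does not contain. Of its 10 tested members 3 were lower, among them GP1BB and gp9, which had been set aside by name, and 4 were higher, among them FERMT3 (ENSDARG00000079267). Its median log2 fold change was 0.80, beside 0.11 over all tested genes, of which 9.92% were lower and 13.0% higher. The summed CPM of the thrombocyte list was 756 to 878 in the mutant libraries and 414 to 540 in the controls. GFI1B, a thrombocyte and red cell repressor, was the other lower member, at log2 fold change -3.99 (SE 1.23, adjusted p = 0.0383, edgeR). GP1BB and GFI1B each passed in 4 of 11 alternatives (adjusted p 0.0198 to 0.0878 for GP1BB and 0.00116 to 0.104 for GFI1B). Both lost the call with library totals, without the filter and without control replicate 2 or 3 or mutant replicate 2, GFI1B also without control replicate 1 or mutant replicate 1, and GP1BB also with DESeq2 and without mutant replicate 3.

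Several of the named genes act in the nucleus or on RNA. LSM10 (ENSDARG00000109563), a ring subunit of the U7 particle that trims the ends of histone mRNAs, had 0 reads in all 3 mutant libraries, against 33.4, 25.3 and 33.4 CPM in the controls. Taking 3 reads over the group as the floor, its level was at least 485-fold lower. POT1 (ENSDARG00000079915), which covers the single-stranded end of telomeres, had 0.552, 0.588 and 0.995 CPM in the mutant libraries, against 29.1, 16.8 and 11.4 CPM in the controls. It lay closest of the 23 to the 1 CPM limit, and was 27.8-fold lower (19.6 to 40.7).

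DUS2 (ENSDARG00000077607), which makes dihydrouridine in tRNA, had 0.497, 0.327 and 0.569 CPM in the mutant libraries, against 28.4, 18.1 and 23.8 CPM in the controls. DHX33 (ENSDARG00000051785), a DEAH-box RNA helicase, had 0, 0.849 and 0.142 CPM in the mutant libraries, against 7.50, 16.5 and 15.4 CPM in the controls. Its remaining reads were uneven, with 13 of 15 in mutant replicate 2. ANKLE2 (ENSDARG00000035607), which helps the nuclear envelope reform after mitosis, had 0.276, 0.522 and 0.853 CPM in the mutant libraries, against 16.1, 16.5 and 14.8 CPM in the controls. Its controls spread 1.12-fold, the narrowest spread of the 23.

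gon4la (ENSDARG00000056847), a nuclear protein gene, had 0.331, 0.131 and 0.711 CPM in the mutant libraries, against 12.9, 9.79 and 5.57 CPM in the controls. Its copy gon4lb is the gene udu, which zebrafish need to form primitive red cells. znf1156 (ENSDARG00000098800), a zinc finger gene by its name, had 0 reads in all 3 mutant libraries, against 16.4, 28.9 and 9.10 CPM in the controls. Its level was at least 293-fold lower, and the controls spread 3.18-fold.

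sytl1, SLC43A3 and zfyve16 code for proteins of membranes and transport. sytl1 (ENSDARG00000070094), whose mammalian counterpart tethers secretory vesicles through Rab27, had 0.276, 0.261 and 0.142 CPM in the mutant libraries, against 56.2, 38.5 and 36.2 CPM in the controls. That is 11 reads against 1796, a level 189-fold lower (106 to 380). SLC43A3 (ENSDARG00000059682), a carrier of purine bases in mammals, had 0.387, 0.327 and 0.782 CPM in the mutant libraries, against 23.3, 6.55 and 7.84 CPM in the controls. Control replicate 1 stood above the other controls, and the 3.56-fold control spread was the widest of the 23. zfyve16 (ENSDARG00000075747), a protein of early endosomes, had 0.166, 0.588 and 0.853 CPM in the mutant libraries, against 13.6, 11.7 and 10.7 CPM in the controls.

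The clone-named genes carry the name of a sequenced genome or cDNA clone and have no role stated here. si:ch211-108d22.2 (ENSDARG00000097615) had 15, 0 and 1 reads in mutant replicates 1, 2 and 3, against 486, 241 and 448 reads in control replicates 1, 2 and 3. The clone-named gene ENSDARG00000096978 had 16, 0 and 1 reads in the same mutant libraries, against 496, 220 and 443 reads in the controls. The pair ran in parallel in all 6 libraries, with CPM ratios of 0.98, 1.1 and 1.01 between them in control replicates 1, 2 and 3. Of all pairs among the 23 genes it had the smallest difference in control profile. Whether these IDs share reads was not tested.

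si:ch211-214b16.2 (ENSDARG00000102593) had 0, 0 and 0.142 CPM in the mutant libraries, against 19.4, 14.8 and 22.1 CPM in the controls. Its 2 remaining reads against 764 gave a level 443-fold lower, with a wide interval of 122 to 3664. si:ch211-114l13.11 (ENSDARG00000092358) had 0.11, 0.261 and 0.0711 CPM in the mutant libraries, against 13.3, 9.79 and 8.16 CPM in the controls. si:dkey-17m8.2 (ENSDARG00000035797) had 0.166, 0.131 and 0.213 CPM in the mutant libraries, against 7.57, 8.10 and 9.25 CPM in the controls. The highest control was 1.63 times the lowest for si:ch211-114l13.11 and 1.22 times for si:dkey-17m8.2.

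si:ch73-59f11.2 (ENSDARG00000098397) had 0.387, 0.653 and 0.356 CPM in the mutant libraries, against 11.4, 11.2 and 16.1 CPM in the controls. si:ch211-10d23.5 (ENSDARG00000095510) had 0.166, 0.196 and 0.853 CPM in the mutant libraries, against 6.29, 12.7 and 15.5 CPM in the controls. zgc:162171 (ENSDARG00000036499) had 0.608, 0.522 and 0.569 CPM in the mutant libraries, against 8.57, 10.6 and 8.08 CPM in the controls. It kept the largest share of its control level among the 23, at 6.23%, and was 16.1-fold lower (10.9 to 24.7). The unnamed gene ENSDARG00000115195 had 0.939, 0.522 and 0.213 CPM in the mutant libraries, against 38.2, 23.6 and 58.7 CPM in the controls.

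Read over all 23 genes, the depth of loss varied widely. Over the 3 mutant libraries, 2 genes had 0 reads, 1 had 2 reads, 4 had 4 to 10 reads and 16 had more than 10 reads, with 33 reads at most. In 6 genes the mutant level was under 1% of the control level: lnc.veal2, sytl1, ANGPTL5, LSM10, si:ch211-214b16.2 and znf1156. mutant replicate 2 had 0 reads in 6 of the 23 genes, replicate 1 in 4 and replicate 3 in 2. Control means ranged from 8.31 to 199 CPM, with a median of 18.2 CPM. The other 6600 genes at 5 CPM or more in each control had a median of 35.1 CPM. A fixed limit of 1 CPM in the mutant libraries favours genes of low control level. The lower median is therefore not read as a trait of the 23.

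Among the controls the 23 genes were less even than the other genes of that range. Those other genes had a median control mean of 31.7 CPM, against 18.2 CPM for the 23. The upper end of the range is lnc.veal2 alone. The sets are thus not matched for level, and the part of level in the difference was not tested. The highest control was more than 2 times the lowest in 12 of 23 genes (52.2%), and in 28.6% of 5744 other genes within the same range of control means. Control replicate 1 was the highest control for 11 of the 23 genes, and control replicate 2 the lowest for 10. The median ratio of highest to lowest control was 2.07 for the 23 genes and 1.6 for the others. These are descriptions of genes that share 3 libraries.

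**Figure D2:**
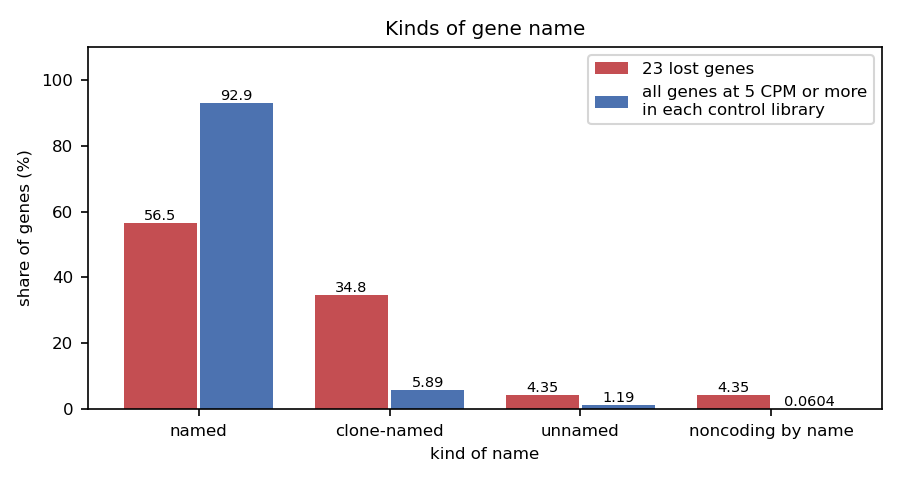
Bars give the share of genes with each kind of name, for the 23 genes lost in mutant cells and for all 6623 genes at 5 CPM or more in each control library. Clone-named genes are 34.8% of the 23 genes and 5.89% of the larger set.

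By kind of name, 13 of the 23 genes had a gene symbol, 8 were clone-named, 1 was unnamed and 1 was noncoding by its name. In the 6623 genes the clone-named share was 5.89% and the unnamed share 1.19%. Seen from the other side, 8 of 390 clone-named genes (2.05%) and 13 of 6150 genes with a symbol (0.211%) met both limits. By symbol or synonym, 16 of the 23 genes (69.6%) were matched to the RefSeq gene table, and all 16 are annotated there as protein-coding, among them 4 clone-named genes. The other 7 have no class from that table. They include lnc.veal2, noncoding by its name, and SLC43A3, which has the symbol of a carrier. The rest are clone-named or unnamed, and noncoding genes among them cannot be told apart from coding ones. Of all 6623 genes 90.5% were matched, and 99.5% of those matched are protein-coding there.

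Noncoding RNAs were compared with lnc.veal2 only where the name marked them as such. By name, 4 genes at 5 CPM or more in each control were noncoding, lnc.veal2 included. By RefSeq class, 22 of 5996 matched genes at that control level (0.367%) are long noncoding RNAs, and 0 of the 16 matched lost genes. With so low a share, 16 genes are too few to tell the sets apart. Genes noncoding by that class alone were not compared here. MIR142, named for a blood cell microRNA, had 5.97, 5.16 and 5.40 CPM in the mutant libraries, against 8.22, 9.08 and 11.0 CPM in the controls. It did not pass the test (log2 fold change -1.09, SE 0.74, adjusted p = 0.321, edgeR). Of 11 alternatives MIR142 passed only with DESeq2 (adjusted p = 0.0477, and 0.0477 to 0.564 over them). The noncoding RNA lnc.85 was lower, at 1.71, 2.29 and 3.13 CPM in the mutant libraries, against 15.6, 14.9 and 10.8 CPM in the controls (log2 fold change -2.84, SE 0.76, adjusted p = 0.0202, edgeR). It passed in 6 of 11 alternatives (adjusted p 3.07e-08 to 0.0741), and not without the filter or without control replicate 1 or 2 or mutant replicate 1 or 2. linc-epb41l4a was higher, at 78.9, 132 and 69.1 CPM in the mutant libraries, against 32.0, 40.8 and 34.7 CPM in the controls (log2 fold change 1.05, SE 0.32, adjusted p = 0.035, edgeR). It passed in 5 of 11 alternatives (adjusted p 0.00946 to 0.15), and of those that leave out 1 library only without mutant replicate 3.

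**Figure D3:**
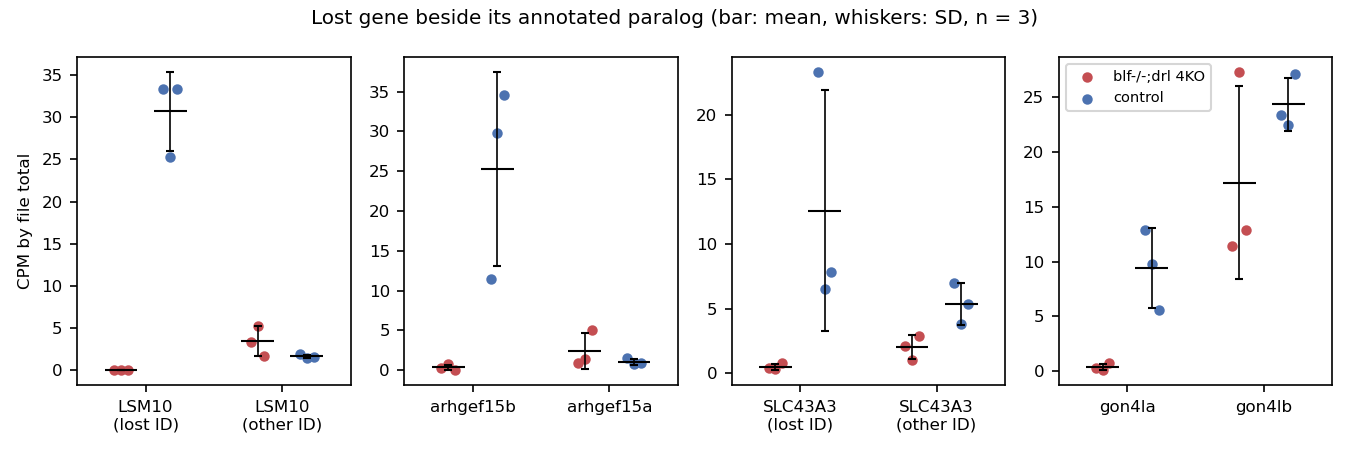
Points are libraries, bars means and whiskers SDs (n = 3 each) of CPM by file total, for the 4 lost genes that have an annotated paralog and for that paralog. gon4lb is the only paralog at 5 CPM or more in each mutant library.

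Of the 13 genes with a symbol, 4 had an annotated paralog, that is, another ID with the same symbol or a symbol that differs in its last paralog mark. None of the 4 paralogs passed the edgeR test of mutant against control, and 0 had an unadjusted p under 0.05, whereas 1 passed with DESeq2. In the same fit 9.92% of 14517 genes were lower and 13.0% higher, and with library totals in place of TMM scaling the split of calls moved from 1440 lower and 1887 higher to 959 lower and 2402 higher. That scaling shifted the median log2 fold change of all genes to 0.42.

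Only gon4lb kept a level of 5 CPM or more in every mutant library. It had 11.4, 27.3 and 12.9 CPM in the mutant libraries, against 23.4, 22.5 and 27.1 CPM in the controls, and the groups overlapped (log2 fold change -0.83, SE 0.50, adjusted p = 0.263, edgeR). Summed with gon4la, the pair was at 17.6 CPM in the mutant libraries and 33.7 CPM in the controls, 52.1% of the control level. Each such sum contains the lost gene, whose values in both groups are bounded by the limits. Its percentage is thus a description and partly set by the choice of genes.

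The other 3 paralogs were low in both groups. The second ID listed as LSM10 (ENSDARG00000101222) had 3.31, 5.29 and 1.71 CPM in the mutant libraries, against 1.86, 1.48 and 1.57 CPM in the controls (log2 fold change 0.74, SE 0.93, adjusted p = 0.606, edgeR). The LSM10 IDs together reached 10.6% of the control level in the mutant libraries. With a second ID this low, the limits on the lost ID largely set that percentage. RefSeq lists lsm10 as a single gene, and the sources used here do not say how reads were divided between the IDs.

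arhgef15a had 0.829, 1.37 and 5.05 CPM in the mutant libraries, against 1.5, 0.704 and 0.941 CPM in the controls (log2 fold change 0.92, SE 0.96, adjusted p = 0.528, edgeR). Its sign rests on mutant replicate 3, since without that library the log2 fold change was -0.22. The second ID listed as SLC43A3 (ENSDARG00000057949) had 2.10, 1.04 and 2.92 CPM in the mutant libraries, against 7.0, 3.80 and 5.33 CPM in the controls, with no overlap (log2 fold change -1.69, SE 0.95, adjusted p = 0.233, edgeR). With DESeq2 it was past the threshold (adjusted p = 0.0232, and 0.0232 to 0.441 over 11 alternatives). The pairs reached 10.5% and 14.0% of their control levels, again with the part of the lost gene bounded by the limits.

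Wider families, of genes that share the letters of a symbol with another number, were also read. Their counts of calls stand beside 9.92% lower and 13.0% higher over all tested genes. Of 9 other angptl genes 4 were tested, and 2 were higher. These were angptl7, at 82.8, 96.4 and 68.8 CPM in the mutant libraries against 19.4, 3.45 and 5.88 CPM in the controls (adjusted p = 0.00377, edgeR), and ANGPTL4 (adjusted p = 0.0213, edgeR). ANGPTL4 passed in 8 of 11 alternatives (adjusted p 0.0023 to 0.108), and not without control replicate 1 or 2 or mutant replicate 3. Among 5 other sytl genes none reached 5 CPM in every control or every mutant library, and neither of the 2 tested passed. sytl2b had 0.276, 0.980 and 0.640 CPM in the mutant libraries, against 1.43, 8.73 and 0.549 CPM in the controls.

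Reads of the other tRNA enzymes of the dus family varied. DUS3L had 62.1, 55.7 and 83.8 CPM in the mutant libraries, against 23.6, 33.7 and 26.6 CPM in the controls (log2 fold change 0.95, adjusted p = 0.0703, edgeR) and passed with library totals, as 1 of 11 alternatives (adjusted p 0.0166 to 0.212 over them). DUS1L had 7.13, 22.8 and 41.2 CPM in the mutant libraries, against 55.7, 61.4 and 46.6 CPM in the controls, with no overlap, and did not pass (adjusted p = 0.0651, edgeR). It passed in 2 of 11 alternatives (adjusted p 0.0201 to 0.205), 1 of them without mutant replicate 3. DUS4L had 0.331, 13.5 and 16.3 CPM in the mutant libraries, against 6.22, 13.2 and 21.1 CPM in the controls, and did not pass (adjusted p = 0.633, edgeR). Of 15 tested dhx helicase genes 3 were lower and 0 higher, beside 9.92% lower and 13.0% higher over all tested genes. DHX37, a ribosome assembly helicase, had 17.2, 13.2 and 6.04 CPM in the mutant libraries, against 63.0, 38.5 and 67.9 CPM in the controls (log2 fold change -2.53, adjusted p = 0.00266, edgeR). DHX35 was lower too (log2 fold change -1.89, adjusted p = 0.00677, edgeR), and DHX15 was lower at adjusted p = 0.0217. DHX15 passed in 4 of 11 alternatives (adjusted p 0.0189 to 0.121), and failed with DESeq2, with library totals, without the filter, and without control replicate 2 or 3 or mutant replicate 1 or 3.

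Among tubulins, tubb4b had 527, 470 and 339 CPM in the mutant libraries, against 633, 850 and 657 CPM in the controls (log2 fold change -1.01, adjusted p = 0.00455, edgeR; 0.0814 with DESeq2, and 0.00487 to 0.0814 over 11 alternatives). tubb5 was higher (log2 fold change 1.93, adjusted p = 0.0407, edgeR), and passed in 6 of 11 alternatives (adjusted p 0.00851 to 0.135), of those that leave out 1 library only without control replicate 1. SLC43A1 (ENSDARG00000037393), an amino acid carrier related to SLC43A3, was lower at 83.1, 111 and 149 CPM in the mutant libraries, against 254, 242 and 247 CPM in the controls (log2 fold change -1.43, adjusted p = 0.00148, edgeR). Of 25 tested arhgef genes 1 was lower and 5 higher, of 103 tested znf genes 5 were lower and 1 higher, and of 6 tested zfyve genes none passed. Over all 14517 tested genes 9.92% were lower and 13.0% higher. Of 15 other lsm IDs 11 were at 5 CPM or more in each mutant library, and 11 in each control library. Among 13 tested, LSM6, LSM8 and LSM11 were lower, LSM4 was higher and 9 did not pass. LSM8 (adjusted p = 0.0118, edgeR) passed in 4 of 11 alternatives (adjusted p 0.00853 to 0.0875). LSM4 (log2 fold change 0.67, adjusted p = 0.0319, edgeR) passed in 3 of 11 (adjusted p 0.00232 to 0.117), none of them with a library left out. POT1 and ANKLE2 had no other gene of their letters.

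**Figure D4:**
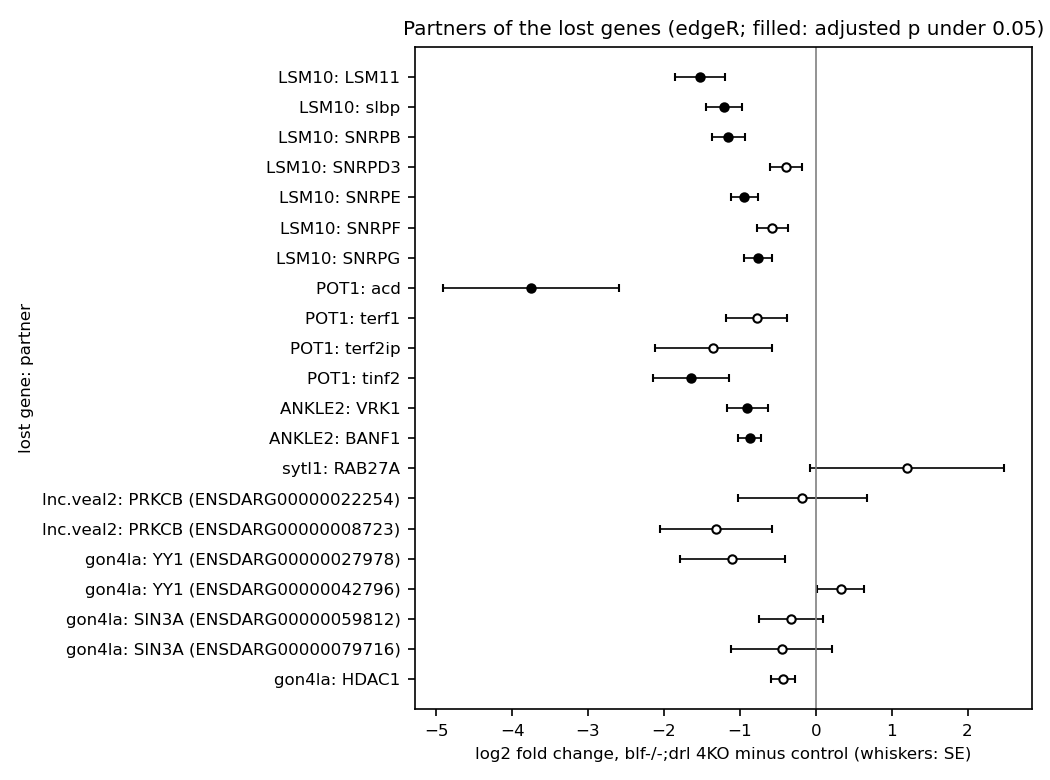
Points give the log2 fold change, mutant minus control, with its SE, of genes whose proteins work with a lost gene; filled points passed the edgeR test. Of the tested partners only RAB27A (1.2) and YY1 ENSDARG00000042796 (0.33) lie right of 0. LSM11 lies at -1.52, and acd, which passed in 3 of 11 alternatives, at -3.75.

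Partners of some of the 23 genes were chosen after the values of the 23 were known, and each was read in the fit over all genes. Calls among all these partners stand beside 9.92% lower and 13.0% higher over all tested genes. They also stand beside 24 of 34 tested cell cycle genes lower. LSM11, the other U7-specific ring subunit, had 41.7, 22.7 and 34.7 CPM in the mutant libraries, against 92.9, 73.9 and 64.4 CPM in the controls (log2 fold change -1.52, SE 0.33, adjusted p = 0.00666, edgeR). slbp, which binds the stem-loop of histone mRNAs, was lower by a log2 fold change of -1.21 (adjusted p = 0.00412, edgeR). Both partners kept reads in every mutant library, where the LSM10 ID among the 23 had none. The second LSM10 ID (ENSDARG00000101222) had 3.31, 5.29 and 1.71 CPM there. Of 5 Sm ring genes tested, SNRPB, SNRPE and SNRPG were lower. SNRPG (adjusted p = 0.0133, edgeR) passed in 4 of 11 alternatives (adjusted p 0.00763 to 0.144), and not with library totals, with DESeq2, without the filter, or without control replicate 2 or 3 or mutant replicate 1 or 2. SNRPD3 (ENSDARG00000076283) and SNRPF did not pass (adjusted p = 0.203 and 0.0604, edgeR).

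Shelterin, the telomere complex of POT1, was measured in 4 further genes. acd, which recruits POT1 in mammals, had 0.276, 0.653 and 0.213 CPM in the mutant libraries, against 6.22, 5.49 and 0.941 CPM in the controls (log2 fold change -3.75, SE 1.16, adjusted p = 0.0380, edgeR). Control replicate 3 lay near the mutant libraries. tinf2 was lower by a log2 fold change of -1.64 (SE 0.50, adjusted p = 0.0372, edgeR). Each call was lost in several alternatives, among them library totals, no filter, and leaving out control replicate 1 or 2 or mutant replicate 1 or 2, with that of acd also lost without mutant replicate 3 and that of tinf2 also without control replicate 3. Over 11 alternatives the adjusted p was 0.000545 to 0.12 for acd and 0.0158 to 0.135 for tinf2. terf1 and terf2ip did not pass (adjusted p = 0.186 and 0.235, edgeR).

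ANKLE2 acts on the chromatin protein BANF1 and its kinase VRK1. BANF1 had 575, 689 and 663 CPM in the mutant libraries, against 872, 930 and 1011 CPM in the controls (log2 fold change -0.87, SE 0.15, adjusted p = 0.00201, edgeR; 0.051 with DESeq2, and 0.00126 to 0.051 over 11 alternatives). VRK1 was lower at adjusted p = 0.0332 (edgeR), and passed in 3 of 11 alternatives (adjusted p 0.029 to 0.161). Those it failed included library totals, DESeq2, no filter, and leaving out control replicate 2 or 3 or mutant replicate 1 or 3. RAB27A, the Rab bound by sytl1-type proteins, had at most 4.55 CPM in any library and did not pass. PRKCB, the kinase gene linked to veal2 in zebrafish, is listed for 2 IDs, and neither passed (adjusted p = 0.899 and 0.232, edgeR). Of the GON4L partners YY1, SIN3A and HDAC1 none of 5 IDs passed.

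Neighbouring genes were read to see whether loss extended along the chromosome. Symbols placed 16 of the genes in the RefSeq gene order. Of these, 13 share no chromosome with blf or a drl gene, and none lies within 10 genes of one. LSM10 is the symbol of more than 1 ID, so its place may not be that of the lost ID. znf1156 is 334 annotated genes from blf. The 3 nearest matched coding genes on each side gave 96 neighbours, of which 36 were at 5 CPM or more in each control. Of these 36, 31 were at 5 CPM or more in each mutant library and 0 were under 1 CPM in all of them. The share of all genes at that control level that also held 5 CPM in each mutant library is not given. The 31 are thus a count only. Among all 6623 genes at that control level only 0.347% were under 1 CPM in each mutant library. With so low a share, 36 neighbours are too few to tell whether loss extended. lnc.veal2 was among the genes that could not be placed.

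Of 66 neighbours tested, 7 were lower (10.6%, beside 9.92% of all genes), 10 higher and 49 did not pass. Over all tested genes 13.0% were higher. FKBP9, next to sytl1, was among the higher ones, at 118, 143 and 87.3 CPM in the mutant libraries, against 20.4, 10.4 and 3.45 CPM in the controls (log2 fold change 3.06, adjusted p = 0.00175, edgeR). thrap3b, next to LSM10 by symbol, had 123, 104 and 103 CPM in the mutant libraries, against 174, 147 and 101 CPM in the controls. It did not pass (adjusted p = 0.0629, edgeR), and which LSM10 ID lies there was not tested. The ribosomal gene RPLP0, next to DHX33, was lower, at 1416, 1328 and 1149 CPM in the mutant libraries, against 2341, 2534 and 2383 CPM in the controls (log2 fold change -1.22, adjusted p = 9.19e-05, edgeR). dtnbp1b, near gon4la, was the neighbour closest to full loss, with 0, 0 and 0.0711 CPM in the mutant libraries, against 2.29, 1.27 and 10.7 CPM in the controls (adjusted p = 0.00731, edgeR). The order is that of another assembly (GRCz12tu) than the one used for counting.

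Genes numbered on the same clone were read as position only, not as paralogs. si:ch211-114l13.12 had 27.8, 23.9 and 5.33 CPM in the mutant libraries, against 4.29, 1.48 and 0.235 CPM in the controls, and did not pass (log2 fold change 2.97, SE 1.04, adjusted p = 0.0624, edgeR; 0.00752 to 0.175 over 11 alternatives, past in 5). si:dkey-17m8.1 had 12.5, 13.7 and 16.9 CPM in the mutant libraries, against 28.9, 15.4 and 6.82 CPM in the controls, and did not pass (adjusted p = 0.581, edgeR). Another gene of that clone, si:dkey-17m8.3, had 0 reads in all 3 mutant libraries, against 0.929, 0.634 and 1.1 CPM in the controls, and was too low to test. Of the other genes on these clones none was tested.

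None of the 23 genes belongs to any of 11 lists of cell type markers and processes, which place the set in these libraries. The listed gene drl met both limits and was set aside by name. Only 0.347% of the 6623 genes at 5 CPM or more in each control met both limits. Absence from short lists is therefore not read as a trait of the set. The calls in the lists stand beside 9.92% lower and 13.0% higher over all tested genes. Of 29 tested erythroid genes 27 were lower and 0 higher, with a summed CPM of 15879 to 19962 in the mutant libraries and 108267 to 122384 in the controls. Among primitive blood progenitor genes 5 of 13 were lower, blf and drl included, and 4 higher. TAL1 was at log2 fold change -2.22 (adjusted p = 5.88e-06, edgeR), and LMO2 at -2.40 (adjusted p = 7.64e-05, edgeR), and IKZF1 was the other lower gene that was not itself targeted. The higher genes were etsrp (log2 fold change 2.31, adjusted p = 0.000249, edgeR), SPI1 at 2.22, FLI1 at 1.26 and CBFB at 1.16. Of 34 tested cell cycle genes 24 were lower and 0 higher, with a median log2 fold change of -1.28, beside 0.11 over all tested genes.

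Lists of other cell types held more higher than lower genes, beside 13.0% higher and 9.92% lower over all tested genes. Of 22 tested myeloid genes 19 were higher and 0 lower, with a summed CPM of 8325 to 10088 in the mutant libraries and 1430 to 1550 in the controls. Of 15 epidermis and periderm genes 11 were higher and 0 lower, at 2526 to 3666 CPM in the mutant libraries and 253 to 268 CPM in the controls. Muscle genes were higher in 6 of 12 cases, neural genes higher in 4 and lower in 1 of 7, and pronephros genes higher in 6 and lower in 1 of 10. At least 1 read was found in each group for every matched marker, except 1 neural marker that had 0 reads in the mutant libraries. The part of these shifts in the low levels of the 23 genes was not tested.

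Near the limits, membership turned on small differences. Just inside the 1 CPM limit lay POT1, ENSDARG00000115195 and tubb1, with highest mutant values of 0.995, 0.939 and 0.924 CPM. Just outside lay DDX31, si:ch73-308m11.1 and cdk5rap2, with 1.14, 1.14 and 1.16 CPM. At the 5 CPM limit gon4la, tubb1 and si:ch211-10d23.5 lay just inside, with lowest controls of 5.57, 5.57 and 6.29 CPM. ALG14, UCK1 and the unnamed ENSDARG00000117309 lay just outside with 4.78, 4.55 and 4.51 CPM. UCK1, a kinase for uridine and cytidine, had 0.0552, 0.0653 and 0.0711 CPM in the mutant libraries, against 10.4, 16.2 and 4.55 CPM in the controls, and missed the set through control replicate 3 alone.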

How the data were processed

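RNA-seq counts of 6 libraries, 3 in each group, were used. Each library has its own file of raw counts, deposited by the authors with Ensembl gene IDs. Tools listed in the submitters' processing notes, in no stated order, are featureCounts 1.6.0, SAMtools 1.10, HISAT2 2.2.1, FastQC 0.11.9 and bcl2fastq, on build GRCz11. Strand setting, annotation release and the handling of multiply assigned reads are not given in the sources, which leaves near-identical, overlapping and antisense genes uncertain.

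Groups came from the sample titles. CPM by file total chose the 23 genes. All 23 passed the filter of the fit, but no p is given for them. The counts were fitted in R 4.3.3 with edgeR 4.0.16 (filterByExpr, TMM, robust quasi-likelihood test), which left 14517 genes, with Benjamini-Hochberg adjustment and a threshold of 0.05. SE is the log2 fold change divided by the square root of F. The code was tested on simulated counts. Alternatives used DESeq2 1.42.0, other scalings, filters, limits, a replicate block and each library left out. Ensembl IDs were matched to a table of gene names, and symbols to RefSeq (GRCz12tu). The planned protein-based paralog search was not run, since no protein table was used here. Trailing numbers of clone names were not read as paralog marks, a choice made after the names were seen. The 23 genes, lists and partners were chosen with earlier results of these data known. Named genes were all 23, their paralogs, the genes nearest the limits, and, chosen after values were seen, examples from families, partners, neighbours and lists. The result of 1 gene list is not reported here.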

Additional observations from a re-analysis of the deposited data

How the results depend on the processing

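The number of genes chosen by the limits depended on the limits. It was 23 as reported, 14 with 10 CPM and 43 with 3 CPM in the controls, and 8 with 0.5 CPM and 46 with 2 CPM in the mutant libraries. TMM scaling gave 27 genes, including all 23, and totals without globin genes gave 26, without POT1. Leaving out each library in turn gave 34 to 46 genes, since fewer libraries have to meet a limit. The share of genes without an ordinary symbol was 43.5%, and 42.9% at 10 CPM. Of all genes at those control levels, 92.9% and 94.3% had an ordinary symbol. The clone-named share alone was 34.8%, and 28.6% at 10 CPM, beside 5.89% and 4.65% of all genes at those levels. Genes lower across the whole table numbered 1440 with edgeR and TMM, 959 with library totals, 1708 with DESeq2, and 868 to 1220 with each library left out, lowest without control replicate 2. Paralogs past the threshold numbered 0 under each edgeR setting and 1 with DESeq2, which was SLC43A3 (ENSDARG00000057949). The alternatives that define paralogs by protein identity were not run. The log2 fold change of arhgef15a was 0.92, and -0.22 to 1.36 with each library left out, lowest without mutant replicate 3, and the cause was not tested. The replicate numbers were not treated as pairing the libraries, since deviations of same-numbered libraries correlated at 0.00355, -0.0408 and -0.000683, and not every library correlated best with its own number. A replicate block gave 1277 lower genes. Among the genes named, it changed 4 calls: acd and VRK1 did not pass with it (adjusted p = 0.069 and 0.0515), and DUS1L and si:ch211-114l13.12 did (0.0386 and 0.0273). With 14.1 to 18.1 reads per CPM in the mutant libraries, levels of single reads there carry large counting error.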
